A study of Mus musculus with 6 samples.

Results

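The 9 genes described here carry cholesterol out of cells, store it, or release it from lysosomes: Abca1, Abcg1, Nr1h3, Soat1, Scarb1, Npc1, Npc2, Lipa and Mylip. They were chosen by name, and all 9 were found among the 15663 genes listed for each library. RNA was sequenced from RPE-choroid, the retinal pigment epithelium (RPE) with the vascular choroid beneath it, of 3 control mice and 3 subretinal fibrosis (SRF) mice, as 6 separate libraries. The mice were males, provided at 8 to 10 weeks of age, and their age at sampling is not given. The strain is labelled C57BL/6 and given as C57BL/6J in the study's methods, and control mice were untreated. SRF mice received 4 laser burns in each eye, each lesion was burned again after 10 days, and the RNA dates from 20 days after that last laser. No dissection of lesions from the tissue between them is described. The sources do not say whether the eyes of a mouse were pooled. In the fits, p-values set the difference between groups against the spread between libraries of the same group.

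Cells can make cholesterol but cannot break down its ring system, so they must export what they do not need. Lipoproteins taken up by a cell reach the lysosome, where lysosomal acid lipase (Lipa) frees cholesterol from its esters, and the soluble carrier Npc2 hands it to the membrane protein Npc1 for release. Free cholesterol is then re-esterified for storage by Soat1, or leaves through the transporters Abca1 and Abcg1, which are switched on by the liver X receptor LXRα (Nr1h3) when sterols build up. LXR also induces Mylip, a ubiquitin ligase that limits lipoprotein uptake, and Scarb1 exchanges cholesterol with high-density lipoprotein at the cell surface. In the outer eye these genes matter because the RPE takes in lipid-rich photoreceptor outer segments every day, and because macrophages that clear debris take in cholesterol in the same way.

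The promoters of Abca1, Npc2 and Lipa are printed because they set the classical LXR-driven transporter beside the most abundant lysosomal members. Each run is the 250 bases before the RefSeq start site in GRCm38.p6, read on the strand of the gene. Capitals mark motifs that were found, namely the E-box CACGTG and a direct repeat resembling the one LXR binds, both in Abca1, while Npc2 and Lipa held none of the motifs searched.
Abca1, chr4:53159896-53160145, reverse strand: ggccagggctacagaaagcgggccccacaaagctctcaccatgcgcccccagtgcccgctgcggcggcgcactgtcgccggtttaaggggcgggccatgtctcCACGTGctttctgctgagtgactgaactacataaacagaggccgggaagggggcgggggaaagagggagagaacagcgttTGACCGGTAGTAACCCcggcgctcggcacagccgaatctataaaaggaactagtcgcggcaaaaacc
Npc2, chr12:84773113-84773362, reverse strand: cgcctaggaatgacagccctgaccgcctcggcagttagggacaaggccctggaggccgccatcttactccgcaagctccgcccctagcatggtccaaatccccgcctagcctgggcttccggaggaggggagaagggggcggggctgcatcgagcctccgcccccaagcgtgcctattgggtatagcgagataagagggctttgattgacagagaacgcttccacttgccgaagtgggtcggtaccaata
Lipa, chr19:34527475-34527724, reverse strand: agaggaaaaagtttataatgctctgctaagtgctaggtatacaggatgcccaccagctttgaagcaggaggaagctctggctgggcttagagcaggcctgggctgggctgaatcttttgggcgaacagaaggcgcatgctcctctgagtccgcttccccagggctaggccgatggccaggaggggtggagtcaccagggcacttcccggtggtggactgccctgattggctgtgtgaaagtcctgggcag
The LXR motif searched was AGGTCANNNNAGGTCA, on both strands. Neither the exact form nor a form with up to 1 mismatch in each repeat was found in any of the 7 windows, which covered 6 of the 9 genes. With up to 2 mismatches in 1 repeat and 1 in the other, a tolerance chosen after the sequences were seen, Abca1 held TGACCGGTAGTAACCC from -67 to -52, counted back from -1 at the base before the start. That looser form was present in 15.8% of all 32851 windows, and the form with 1 mismatch in each repeat in 1.48%. The E-box lay from -147 to -142 in Abca1 and in 6.02% of all windows. It contains no base of the repeat. The longer form TCACGTGA, bound by the lysosomal regulator TFEB and itself a form of the E-box, was in 0.785% of windows, and the sterol element TCACNCCAC in 1.05%. Neither was found in any of the 7 windows.

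Library totals over the listed genes ranged from 13667310 to 24356023 counts, and no listed gene had fewer than 1 count. A gene was tested when 2 or more libraries exceeded 50 counts for it, which held for 13454 genes and for all 9 members. Counts were scaled to library size with TMM normalization and are given as CPM. The tissue label matched its markers, since the 13 RPE genes summed to between 31453 and 54148 CPM in every library. Photoreceptor RNA differed most between libraries and did not follow the groups. Averaged over 15 photoreceptor genes, control mouse 1 reached a log2 CPM of 8.19 and SRF mouse 3 of 8.24, against 4.33 to 5.56 in the other 4, so results are also given within these 2 sets of libraries.

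None of the 9 genes passed the test for a difference between SRF and control mice. To pass, a gene needed an adjusted p under 0.05 and a log2 change of 0.5 or more, up or down, in edgeR's quasi-likelihood test. In that test 0 of all 13454 genes passed (0%), while 943 (7.01%) had an unadjusted p under 0.05, and 0 of the 9 members did. DESeq2 called 153 genes (1.14%), of which the higher ones were 0.803% of all genes, again with 0 members, and 0 members had an unadjusted p under 0.05 there against 7.23% of all genes. In edgeR, 7 members had log2 fold changes above 0 and 2 below, from -0.08 for Mylip to 0.31 for Lipa, with a median of 0.15 beside 0.00 for all tested genes. For 5 members, Abca1, Soat1, Scarb1, Npc2 and Mylip, the whole 95% interval lay between -0.5 and 0.5. For the other 4, Abcg1, Nr1h3, Npc1 and Lipa, it reached over 0.5, and these data do not set a difference of that size apart from none.

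**Figure D1:**
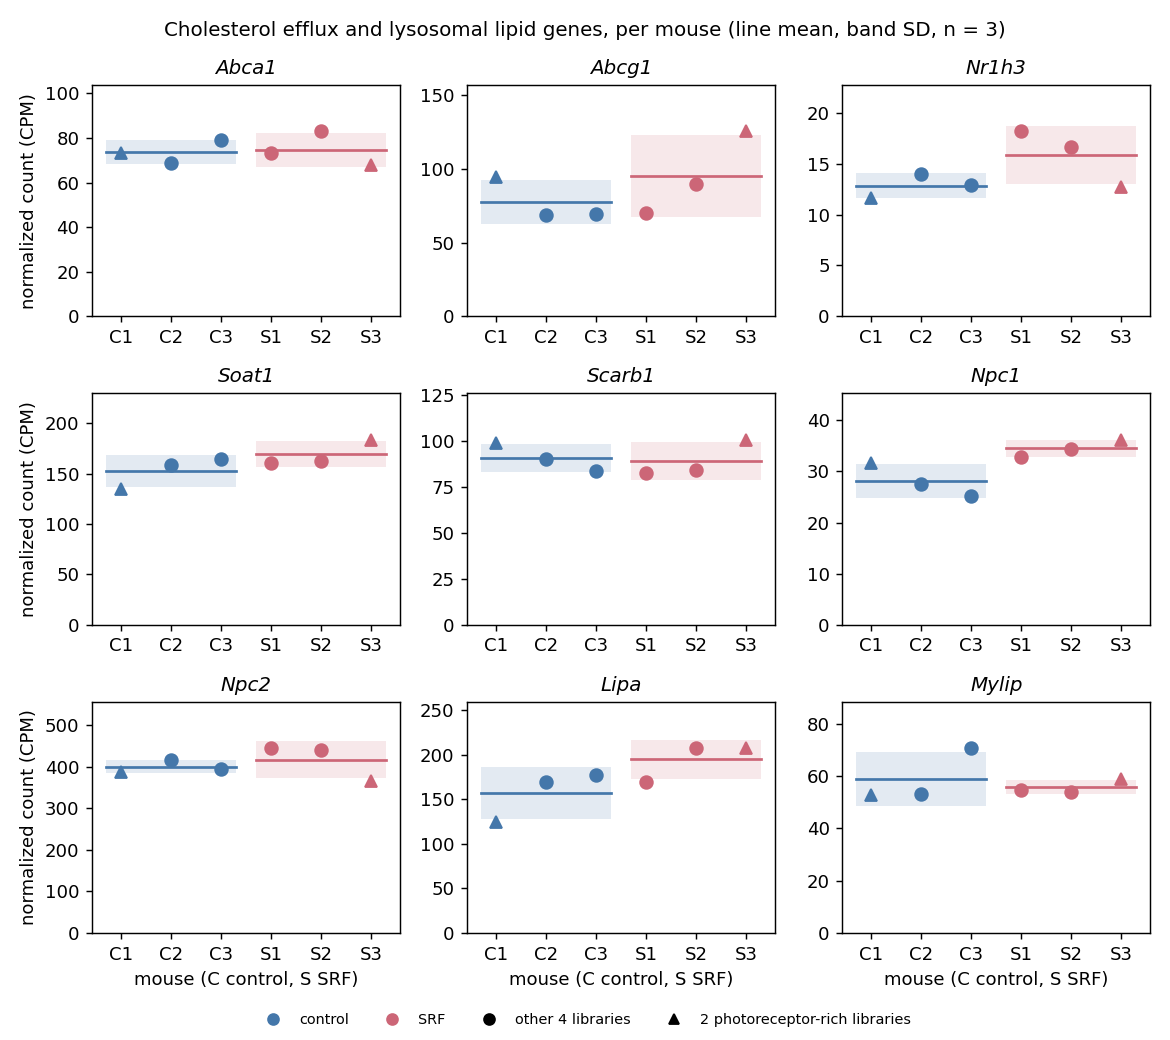
Normalized count (CPM, TMM) of each of the 9 genes in each mouse; lines are group means, bands the SD over 3 mice, and triangles mark control mouse 1 and SRF mouse 3, the libraries with most photoreceptor RNA. Npc1 is the one gene whose 3 SRF values all lie above the 3 control values.

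**Figure D2:**
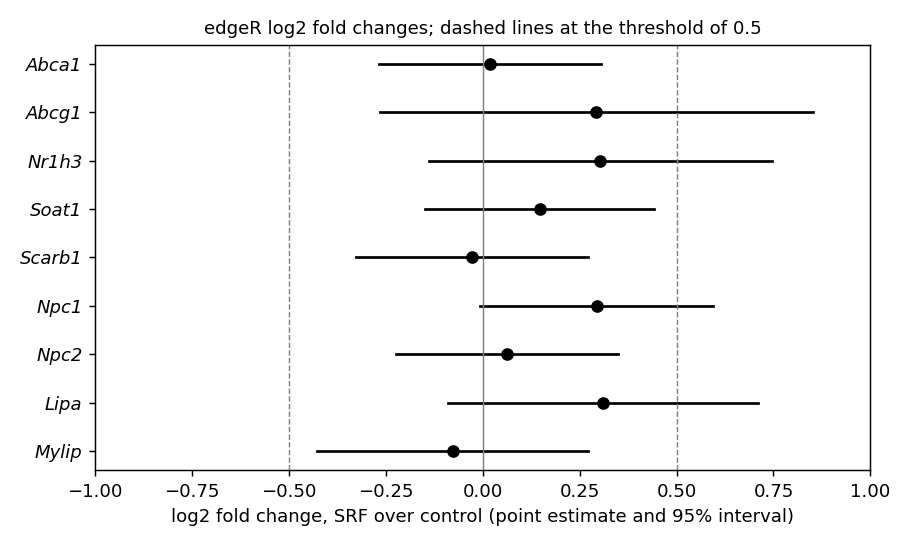
Log2 fold change of each gene, SRF over control, from edgeR (points) with its 95% interval (lines); dashed lines mark 0.5 either way. All 9 intervals include 0, and 5 lie wholly inside the dashed lines.

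Abca1 (ENSMUSG00000015243, chromosome 4, 53030787 to 53159895, reverse strand of GRCm38) moves cholesterol and phospholipid onto lipid-poor apolipoproteins. It had 73.4, 68.6 and 79.1 CPM in control mice 1, 2 and 3, and 73.2, 83.0 and 67.8 CPM in SRF mice 1, 2 and 3. The groups lay on top of each other, and the highest and the lowest of the 6 values were both from SRF mice. Between the groups the fitted log2 difference was 0.02 (standard error 0.12, 95% interval -0.27 to 0.31), so a change of 0.5 either way was outside the interval. Its direction turned when control mouse 2 or SRF mouse 2 was left out, at -0.03 and -0.06.

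Abcg1 (ENSMUSG00000024030, chromosome 17, 31057675 to 31117988, forward strand) moves cholesterol onto mature high-density lipoprotein particles. It had 94.8, 68.8 and 69.7 CPM in the control mice and 70.3, 89.8 and 125.5 CPM in the SRF mice. SRF mouse 3 was highest and control mouse 1 next, and these are the libraries with most photoreceptor RNA. Abcg1 differed by 0.29 on the log2 scale (standard error 0.24, 95% interval -0.27 to 0.85). Without SRF mouse 3 it was 0.05, and without control mouse 1 or SRF mouse 1 it was 0.46 or 0.47. After adding photoreceptor level as a covariate it was 0.32, with an unadjusted p of 0.0290 and an adjusted p of 0.470 in edgeR's quasi-likelihood test.

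Nr1h3 (ENSMUSG00000002108, chromosome 2, 91184061 to 91202834, reverse strand) encodes LXRα, the sterol-sensing nuclear receptor that drives both transporters. It had 11.6, 14.0 and 12.9 CPM in the control mice and 18.2, 16.7 and 12.7 CPM in the SRF mice. SRF mice 1 and 2 lay above every control mouse, and SRF mouse 3 lay among them. On the log2 scale SRF exceeded control by 0.30 (standard error 0.19, 95% interval -0.14 to 0.75, adjusted p = 0.873 in edgeR's quasi-likelihood test). Leaving out SRF mouse 1 gave 0.19 for Nr1h3 and leaving out control mouse 1 gave 0.24, whereas leaving out SRF mouse 3 gave 0.44, with an unadjusted p of 0.0386 and an adjusted p of 0.358 in that test. Deposited counts were 156 to 309 in control and 227 to 336 in SRF mice, the fewest of the 9 genes.

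Mylip (ENSMUSG00000038175, chromosome 13, 45389742 to 45412022, forward strand) is also an LXR target. It had 52.9, 53.0 and 70.8 CPM in the control mice and 54.8, 54.1 and 58.8 CPM in the SRF mice. Control mouse 3 stood above the other 5, which differed little. For Mylip the fitted log2 difference was -0.08 (standard error 0.15, 95% interval -0.43 to 0.27), and without control mouse 3 it was 0.08.

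Scarb1 (ENSMUSG00000037936, chromosome 5, 125277087 to 125341094, reverse strand) encodes the high-density lipoprotein receptor SR-BI. It had 98.7, 90.1 and 83.4 CPM in the control mice and 82.2, 84.1 and 100.6 CPM in the SRF mice. Both groups covered nearly the same range, and the highest value of each came from its photoreceptor-rich library. Scarb1 had a log2 difference of -0.03 (standard error 0.13, 95% interval -0.33 to 0.27), and it was above 0 at library totals only (0.02) and when control mouse 1 (0.04), SRF mouse 1 (0.02) or SRF mouse 2 (0.01) was left out.

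Soat1 (ENSMUSG00000026600, chromosome 1, 156424525 to 156474331, reverse strand) makes the cholesteryl esters that fill lipid droplets. It had 134.4, 159.0 and 164.9 CPM in the control mice and 160.6, 162.9 and 183.9 CPM in the SRF mice. Control mouse 1 was lowest and SRF mouse 3 highest, and the other 4 lay within 6 CPM of each other. From the counts, Soat1 differed by 0.15 on the log2 scale (standard error 0.12, 95% interval -0.15 to 0.44). It was 0.07 without control mouse 1, 0.09 without SRF mouse 3 and -0.01 without both.

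The 3 lysosomal genes act in sequence, with Lipa before Npc2 and Npc1. Lipa (ENSMUSG00000024781, chromosome 19, 34492318 to 34527474, reverse strand) had 124.0, 169.9 and 177.0 CPM in the control mice and 169.2, 207.4 and 207.8 CPM in the SRF mice. SRF mouse 1 lay just below control mice 2 and 3, the other SRF mice lay above all controls, and control mouse 1 lay below all. Lipa was 0.31 higher in SRF on the log2 scale (standard error 0.17, 95% interval -0.09 to 0.71, adjusted p = 0.828 in edgeR's quasi-likelihood test). Without control mouse 1 it was 0.17, and without both photoreceptor-rich libraries it was 0.11.

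Npc2 (ENSMUSG00000021242, chromosome 12, 84754562 to 84773152, reverse strand) had 386.5, 416.8 and 394.2 CPM in the control mice and 445.1, 440.7 and 364.5 CPM in the SRF mice. SRF mice 1 and 2 were above every control and SRF mouse 3 was below every control. Npc2 differed by 0.06 on the log2 scale (standard error 0.12, 95% interval -0.22 to 0.35). It was 0.01 without SRF mouse 1, 0.02 without SRF mouse 2 and 0.16 without SRF mouse 3.

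Npc1 (ENSMUSG00000024413, chromosome 18, 12189692 to 12236400, reverse strand) had 31.7, 27.6 and 25.2 CPM in the control mice and 32.8, 34.4 and 36.2 CPM in the SRF mice. Every SRF mouse had more than every control mouse, although control mouse 1 and SRF mouse 1 differed by little over 1 CPM. Groups that did not overlap in this direction were found for 6.71% of all tested genes, in the opposite direction for 6.43% and in either for 13.1%, beside 1 of the 9 members (11.1%). The fitted log2 difference of Npc1 was 0.29 (standard error 0.13, 95% interval -0.01 to 0.59), with an unadjusted p of 0.0544 and an adjusted p of 0.733 in edgeR's quasi-likelihood test. An exact permutation test, two-sided, gave p = 0.1 for Npc1, the smallest that 3 mice against 3 allow. The gene Rmc1 overlaps one end of Npc1 on the opposite strand and is also counted, and strandedness is not given in the sources used here, so reads in the overlap cannot be assigned with certainty.

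Levels can be compared between genes only per length, and for this the deposited FPKM values were used. In control mice the order was Npc2 (118.6 ± 4.19 FPKM, SD, n = 3), Lipa (51.9 ± 9.47), Scarb1 (37.1 ± 2.78), Soat1 (24.8 ± 3.39), Mylip (18.9 ± 3.38), Abcg1 (13.1 ± 2.53), Nr1h3 (7.14 ± 0.655), Abca1 (7.04 ± 0.530) and Npc1 (5.29 ± 0.620). Neighbours whose control values overlapped were Soat1 with Mylip and Nr1h3 with Abca1. The RNA of the soluble carrier Npc2 was thus far more abundant than that of its membrane partner Npc1. In control mice the values were 115.1 to 123.3 FPKM against 4.74 to 5.96 FPKM, and protein was not measured in these libraries. In SRF mice the order of the 9 means was the same, from 128.2 ± 14.6 FPKM for Npc2 to 6.70 ± 0.318 FPKM for Npc1. Neighbours that overlapped there were Scarb1 with Soat1, Mylip with Abcg1, Nr1h3 with Abca1, and Abca1 with Npc1.

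Soat1 was the one member whose groups overlapped in counts but not in FPKM. Its FPKM was 21.2, 25.4 and 27.9 in the control mice and 29.4, 34.7 and 34.0 in the SRF mice, with no overlap, whereas its CPM overlapped. On the log2(FPKM + 0.1) scale limma gave a difference of 0.40 for Soat1 with an unadjusted p of 0.0244 and an adjusted p of 0.552, against 0.15 from the counts. FPKM per count, on the log2 scale and centred on each library's median and on the gene's mean, was -0.15, -0.11 and -0.04 in the control mice and 0.02, 0.22 and 0.05 in the SRF mice. This ratio depends on the transcript length used for a gene, and Soat1 has 8 annotated transcripts, of 366 to 8371 bases. The ratio of Soat1 spanned 0.37 over the libraries, and that of the other 8 genes at most 0.08. A group difference at least as large as that of Soat1, 0.20, was seen in 3.26% of 13454 genes, and in 14.2% the ratio did not overlap between groups. It did not overlap for 4 of the 9 members. On the log2 scale it was higher in SRF for Soat1, and lower for Abca1 (-0.0112), Abcg1 (-0.0129) and Scarb1 (-0.0466). Differences at least as large as these were seen in 63.95%, 49.61% and 21.01% of genes, in that order. The overlapping members Nr1h3, Npc1, Npc2, Lipa and Mylip were also lower, from -0.0229 for Nr1h3 to -0.0091 for Mylip. The differences of Abca1 and Abcg1 lay within that range. Abca1 separated only by 0.0012 in SRF mouse 3 against 0.0016 in control mouse 1. The comparison was added after the data had been seen, and which transcripts lie behind it was not tested.

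**Figure D3:**
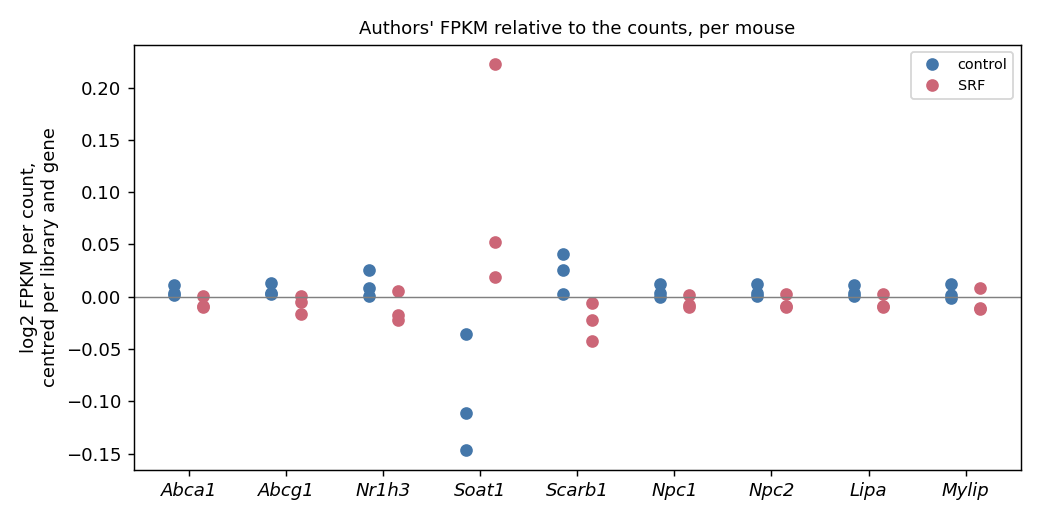
Deposited FPKM divided by deposited counts, log2, centred per library and per gene, for each mouse (blue control, red SRF). Soat1 runs from -0.15 to 0.22, and the other 8 genes stay within a span of 0.08.

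For 4 of the 9 genes the photoreceptor-rich libraries, control mouse 1 and SRF mouse 3, both lay outside the range of the other 4. They were higher in Abcg1 and Scarb1 and lower in Nr1h3 and Npc2. The same was true, in either direction, of 25.9% of all tested genes. The rich set holds 1 mouse of each group and the other set 2 of each, and the split was chosen after seeing the data. Within the 2 rich libraries and also within the other 4, SRF values lay above control values for Abcg1, Nr1h3 and Npc1, as they did for 11.8% of all tested genes. No member was lower in SRF within both sets. Npc2 was lower in SRF within the rich libraries and higher within the other 4. Fitting the other 4 libraries alone, edgeR called 153 genes and 0 members, with log2 fold changes of 0.35 for Npc1, 0.37 for Nr1h3 and 0.21 for Abcg1.

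**Figure D4:**
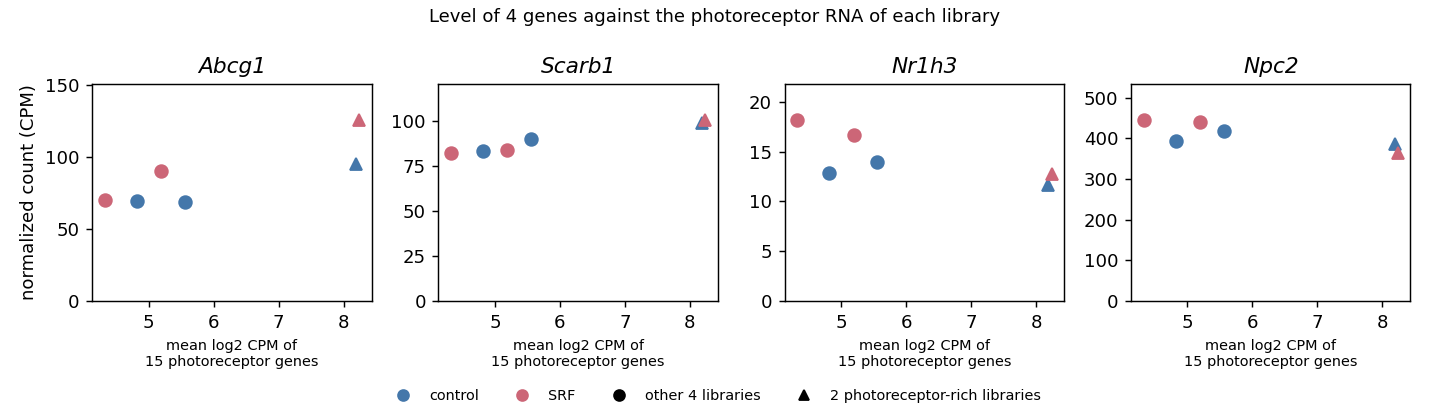
CPM of Abcg1, Scarb1, Nr1h3 and Npc2 (y) against the mean log2 CPM of 15 photoreceptor genes (x) in each mouse; triangles are control mouse 1 and SRF mouse 3, near 8 on the x axis. Abcg1 and Scarb1 are highest in these libraries, and Nr1h3 and Npc2 lowest.

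Macrophages use these genes to handle the cholesterol of ingested debris, and macrophage markers differed between the groups. Of 16 macrophage and microglia genes, 14 had log2 fold changes above 0 and 2 below, Csf1r (-0.03) and Mertk (-0.11), with a median of 0.81. After adjustment 0 of them passed in edgeR, and DESeq2 called 8, all higher, beside 0.803% of all tested genes. At an unadjusted p under 0.05 in edgeR, 12 were higher in SRF (4.16% of all tested genes) and 0 lower (2.85% of all). The 16 genes summed to between 1581 and 2048 CPM in control mice and between 3586 and 5060 CPM in SRF mice. Lyz2 alone held 743 to 1004 CPM of the control sums and 2078 to 3305 CPM of the SRF sums. None of the 16 was at 0 in any library. The 13 RPE genes, by contrast, had a median of -0.50, with 7 lower in SRF at that p. They summed to between 46235 and 54148 CPM in control and between 31453 and 40659 CPM in SRF mice. Rgr alone held 24327 to 27113 CPM of the control sums and 13990 to 17560 CPM of the SRF sums. The 10 fibroblast and smooth muscle genes had a median of 0.39, with 8 above 0, 2 of them at that p and 1 without overlap, and summed to between 5073 and 10903 CPM in control and between 7544 and 11674 CPM in SRF mice. Medians were 0.03 for 10 endothelial genes, -0.05 for 15 photoreceptor genes, 0.24 for 9 genes of inner retina and Mueller glia and 0.09 for 5 melanocyte genes, with 0 genes at that p in these 4 lists. In bulk tissue fewer cells of a type and less RNA per cell cannot be told apart, and the part of these shifts in the levels of the 9 genes was not tested.

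The wider pathway was followed in 7 lists of 99 further genes, of which 95 were tested. In edgeR 9 of them were higher in SRF at an unadjusted p under 0.05 (9.47%, against 4.16% of all tested genes) and 3 were lower (3.16%, against 2.85%), and 0 passed after adjustment in edgeR or were called by DESeq2. Groups did not overlap for 15 of the 95 (15.8%, against 13.1% of all genes). The median log2 fold change of the 95 was 0.00.

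The LXR partners and other LXR targets and cholesterol acceptors had a median of 0.15 over 16 genes, with 3 higher at an unadjusted p under 0.05 and 0 lower. Rxrb, a retinoid X receptor that pairs with LXR on DNA, had 12.3, 14.9 and 9.97 CPM in control and 23.6, 20.9 and 16.4 CPM in SRF mice, without overlap, a log2 difference of 0.71 (standard error 0.21) and an adjusted p of 0.478 in edgeR. Rxra, its relative, went from 21.8 ± 1.44 to 28.2 ± 3.61 CPM (SD, n = 3), which is 0.37 on the log2 scale. Arl4c, a small GTPase and LXR target, had a log2 fold change of 0.75, with groups that overlapped. Nr1h2, which encodes LXRβ, averaged 92.4 ± 11.3 CPM in control and 103 ± 7.08 CPM in SRF mice (log2 fold change 0.16, 95% interval -0.14 to 0.46), and in the deposited FPKM it exceeded Nr1h3 in both groups, at 47.2 against 7.14 in control mice. Apoe, the main cholesterol acceptor made by macrophages and RPE, was at 7175 ± 984 and 9027 ± 1885 CPM (log2 fold change 0.33, 95% interval -0.11 to 0.77). Srebf1, the LXR target that drives fatty acid synthesis, had a log2 fold change of 0.15.

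Uptake genes went both ways, with 2 higher and 1 lower at an unadjusted p under 0.05 among 9 tested. The scavenger receptor Msr1, typical of macrophages, had 3.72, 3.74 and 6.09 CPM in control and 7.25, 8.30 and 10.1 CPM in SRF mice, or 0.91 on the log2 scale (standard error 0.29). Cd36, a scavenger receptor of macrophages and RPE, went from 57.7 ± 8.11 to 77.7 ± 5.72 CPM (SD, n = 3; log2 fold change 0.43). Vldlr, a lipoprotein receptor, had 140.5, 106.3 and 92.7 CPM in control and 84.6, 71.9 and 86.7 CPM in SRF mice, or -0.48 on the log2 scale. In these 3 genes the groups did not overlap, and the adjusted p in edgeR was at least 0.516.

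Cholesterol synthesis differed little. All 24 genes were tested, 17 had a log2 fold change below 0 and 7 above, between -0.34 and 0.13, with a median of -0.08. The lowest was Sc5d, an enzyme late in the pathway, at 119.8 ± 16.8 CPM in control and 94.7 ± 3.62 CPM in SRF mice (unadjusted p = 0.0333, adjusted p = 0.632 in edgeR), and it was the one gene of the list with an unadjusted p under 0.05. Srebf2, the master regulator, had a log2 fold change of 0.04 (95% interval -0.23 to 0.32). The 14 sterol transfer genes had a median of -0.08, with 0 at an unadjusted p under 0.05.

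Among the 17 other lysosomal genes, 3 were higher and 1 lower at an unadjusted p under 0.05, with a median of 0.09. The lower one was Mitf, a regulator of pigment cells and lysosomes that also stands in the RPE list, at 60.2 ± 7.07 CPM in control and 41.3 ± 6.48 CPM in SRF mice (log2 fold change -0.55). Tfe3, a relative of TFEB that switches on lysosomal genes, had 30.7, 34.2 and 34.8 CPM in control and 40.3, 42.3 and 40.6 CPM in SRF mice (log2 fold change 0.30, standard error 0.11, adjusted p = 0.601 in edgeR). Of 8 tested genes of cholesteryl ester and lipid droplet handling, 0 had an unadjusted p under 0.05, and Soat2, the enzyme that parallels Soat1 in liver and gut, had too few counts to be tested. Of the 7 oxysterol genes only Gpr183, a receptor for oxysterols on immune cells, had an unadjusted p under 0.05, at 7.06 ± 1.74 CPM in control and 10.9 ± 1.10 CPM in SRF mice (log2 fold change 0.62).

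**Figure D5:**
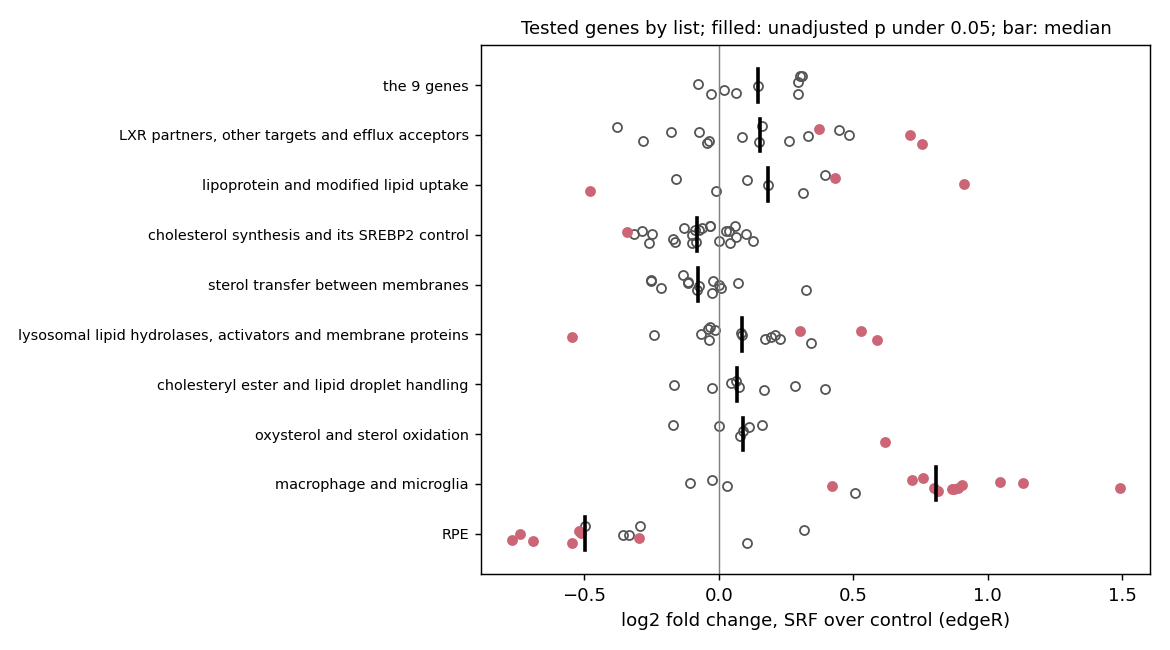
Log2 fold change of every tested gene (points) in the 9-gene set, the 7 pathway lists and the macrophage and RPE marker lists; bars are medians and filled points have an unadjusted p under 0.05 in edgeR. The 9 genes lie between -0.08 and 0.31 with a median of 0.15, and the macrophage markers have a median of 0.81.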

How the data were processed

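RNA-seq was performed by the authors on RPE-choroid of 3 control and 3 SRF mice. They filtered reads with FASTP and counted reads per gene with StringTie, and the deposited counts are raw. The deposited FPKM values are scaled by transcript length and mapped reads. Aligner, build and strandedness are not given in the sources used here. GENCODE M21 (GRCm38) supplied symbols for 15659 of 15663 identifiers, and RefSeq (GRCm38.p6) supplied promoters.

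The counts were fitted with edgeR 4.0.16 (TMM, quasi-likelihood test in its older form, group as the only term) in R 4.3.3, with Benjamini-Hochberg adjustment over 13454 genes. The median standard error was 0.19 on the log2 scale, which limits what smaller differences can show. Other settings tried were DESeq2 1.42.0, limma 3.58.1 (voom, or log2 FPKM with 0.1 or 1 added), other scalings and filters, covariates and omitted libraries. Methods were also run on simulated counts with changes larger than any estimated for a member, and the outcome is not reported here. Scores use log2(CPM + 0.5).

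The 9 genes, lists, named genes (the 3 of each list with the smallest unadjusted p under 0.05, plus Apoe, Nr1h2, Srebf1 and Srebf2) and tests were chosen with earlier results of these data known. The split by photoreceptor RNA, FPKM per count, the loosest motif and DESeq2 without single mice were chosen after seeing the data. Some genes that the naming rule covers are not reported here.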

Additional observations from a re-analysis of the deposited data

How the results depend on the processing

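Over 25 other settings, 0 members were called, and Abcg1, Nr1h3, Npc1, Npc2 and Lipa were above 0 in each. Against 0 genes called by the edgeR test, 153 were called by DESeq2 and also 153 by edgeR without control mouse 1 and SRF mouse 3, 1 each with legacy = FALSE, upper quartile, library totals, no filter, filterByExpr, voom or the photoreceptor covariate, and 2 in limma on either FPKM scale. Leaving out 1 mouse gave 0 to 5 in edgeR, the 5 without control mouse 1. In DESeq2 it gave 246, 90 and 182 without control mice 1, 2 and 3, and 151, 67 and 343 without SRF mice 1, 2 and 3. The number of members with an unadjusted p under 0.05 went from 0 to 1 with size factors, upper quartile, library totals, voom, either FPKM scale or both photoreceptor-rich libraries left out, to 2 with the photoreceptor covariate, and to between 0 and 1 with 1 mouse left out in edgeR or DESeq2. The share of all tested genes under that p was 7.01% in the main edgeR test. That share is not given for these settings, so the counts are not read as a result about the members. Npc1 was under 0.05 in 8 settings, with p from 0.0266 to 0.193 over all of them, and its adjusted p was at least 0.274. The cause was not tested.

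When mouse numbers entered the edgeR model as a replicate block, 0 genes were called. In that fit 1 member, Lipa, had an unadjusted p under 0.05 (0.0201, adjusted p 0.492). The numbers do not mark a shared animal, so they were not taken to pair the mice. Deviations of same-numbered mice from their group means correlated at -0.47, 0.50 and -0.28, as a description.

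Log2 differences near 0 changed sign. With 1 mouse left out in edgeR, Abca1 ranged from -0.0641 to 0.0897, below 0 without control mouse 2 or SRF mouse 2, Mylip from -0.1489 to 0.0773, above 0 without control mouse 3, and Scarb1 from -0.1176 to 0.0409, above 0 without control mouse 1, SRF mouse 1 or SRF mouse 2. DESeq2 without the same mice gave -0.0338 and -0.07 for Abca1, 0.0799 for Mylip, and 0.0312, 0.0273 and 0.008 for Scarb1. Scarb1 was 0.0208 at library totals, and Soat1 was -0.0054 without both photoreceptor-rich libraries.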

Other observations

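The genes most like a member over the 6 libraries were looked up by the Pearson correlation of log2 CPM, as a description. For Lipa they were Chst15, Lin9 and Nr1h2 (0.99 each), the last being LXRβ, but 77 genes exceeded 0.95. For Npc1 they were Pold1, Ppp3ca and Lcmt2, for Nr1h3 Snrpc, Tcea3 and 3110040N11Rik, and for Abcg1 Pip5k1c, Rngtt and Ifrd1. With 6 libraries that share tissue and large differences in photoreceptor RNA, such values arise for many genes.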
